A study of Mus musculus with 454 samples.

Results

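Zfp189, Maff, Gem, Adamts1, Flrt3, Gpr22, Ankrd49 and Klf6 are 8 of the 43346 genes in the series, and they were chosen by their difference between acute cocaine and acute saline in the PFC. That difference is therefore given as a description, and nothing rests on its test, which helped to choose the genes. The measurements that bear on the genes apart from it are those in the other 3 regions, with chronic cocaine, by housing, by sex and between regions.

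The series holds RNA-seq of 454 libraries from mouse brain, of which 112 are labelled PFC (usually prefrontal cortex), 112 Nac (nucleus accumbens), 115 AMY (amygdala) and 115 VTA (ventral tegmental area). The mice, for which the labels give no strain, age or genotype, were socially isolated or housed in groups, female or male, and were given either cocaine (7.5 mg/kg) or saline, acutely or chronically. This made 64 groups of 5 to 8 libraries. The acute groups of the PFC held 30 cocaine and 28 saline libraries, and the chronic groups 28 cocaine and 26 saline libraries. The time from an injection to dissection is not stated in the labels, nor is the number of chronic doses. The labels do not say that the libraries came from separate animals, so a p-value speaks only of the spread among these libraries, part of which may be technical.

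Library totals ran from 11.21 to 52.34 M counts, with a median of 21.72 M. The sample titles carry numbers in 4 series, around 500, 1000, 1100 and 1200. Acute cocaine and acute saline were both found in series 1000 and in series 1100. In the chronic arm only series 1200 held both, since the other saline libraries were in series 500 and the other cocaine libraries in series 1000. By a rule on opposite-sex transcripts, principal components and marker lists of other tissues, 32 libraries stood apart from their region, 8 of them in the PFC. Slc17a7, the vesicular glutamate transporter of cortical neurons, averaged 1603 CPM in the PFC and at most 304 CPM in another region. CPM is a library's count for a gene scaled to its total. For the 8 genes that total was first adjusted by a normalization factor per library (TMM).

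Transcription factors and signalling proteins of the immediate-early type are switched on in neurons within minutes to hours of strong activity or dopamine receptor stimulation, in part through the factor CREB, which binds the cyclic AMP response element (CRE). Maff, Gem and Adamts1 are known as inducible genes of this kind in several cell types. Zfp189, a KRAB zinc finger repressor, has been studied in mouse prefrontal cortex as a target of CREB in stress resilience.

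Of the 8 genes, 7 had a promoter window in the RefSeq table (GRCm38.p6), which spans 250 bases before to 50 after a start, and Maff had 3 such windows. Both strands were searched for the full CRE (TGACGTCA), the CRE half-site (TGACG or CGTCA, which the full CRE also contains), the AP-1 site (TGACTCA or TGAGTCA) and the CArG box. The full CRE lay in 1 window, that of Maff at position -29 from the start, and in 1.79% of all 32851 windows. The half-site lay in 5 of the 9 windows, those of Zfp189 (-48), Ankrd49 (2 places) and Adamts1 (-170) and 2 of the 3 of Maff, and in 20.8% of all windows. The AP-1 site and the CArG box, held by 5.2% and 1.63% of all windows, lay in none of the 9. The windows with a half-site are shown as a description. Of the 4 genes with one, 3 were higher and 1 was lower after acute cocaine in the PFC, the comparison that chose the genes. A link between these sites and the changes was not tested. Capitals mark the CRE letters. Zfp189 is read from chr4:49520926-49521225 (plus strand), Maff from chr15:79347270-79347569 and, for a later start, chr15:79348152-79348451 (both plus), Adamts1 from chr16:85803064-85803363 (minus) and Ankrd49 from chr9:14784524-14784823 (minus).
Zfp189: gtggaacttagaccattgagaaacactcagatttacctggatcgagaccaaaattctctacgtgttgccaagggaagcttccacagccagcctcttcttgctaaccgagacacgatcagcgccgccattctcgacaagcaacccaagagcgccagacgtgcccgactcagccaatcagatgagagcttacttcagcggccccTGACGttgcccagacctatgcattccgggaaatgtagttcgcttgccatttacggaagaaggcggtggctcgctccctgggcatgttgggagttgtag
Maff: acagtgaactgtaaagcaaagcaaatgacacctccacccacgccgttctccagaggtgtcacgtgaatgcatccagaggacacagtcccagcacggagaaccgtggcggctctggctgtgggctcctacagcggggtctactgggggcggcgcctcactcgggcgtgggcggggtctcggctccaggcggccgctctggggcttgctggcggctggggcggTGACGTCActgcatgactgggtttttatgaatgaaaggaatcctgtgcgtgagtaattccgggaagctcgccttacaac
Maff, later start: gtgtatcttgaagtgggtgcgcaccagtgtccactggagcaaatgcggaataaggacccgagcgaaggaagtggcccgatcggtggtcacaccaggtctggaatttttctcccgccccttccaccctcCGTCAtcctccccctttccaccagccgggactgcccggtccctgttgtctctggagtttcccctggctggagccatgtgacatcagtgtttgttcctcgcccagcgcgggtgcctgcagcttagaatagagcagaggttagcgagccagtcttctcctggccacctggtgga
Adamts1: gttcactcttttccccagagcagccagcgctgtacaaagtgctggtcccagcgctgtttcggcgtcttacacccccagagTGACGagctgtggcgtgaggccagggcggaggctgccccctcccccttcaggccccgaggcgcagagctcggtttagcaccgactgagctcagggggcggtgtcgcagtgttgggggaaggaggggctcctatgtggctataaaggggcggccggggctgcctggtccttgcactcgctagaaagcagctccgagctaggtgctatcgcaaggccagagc
Ankrd49: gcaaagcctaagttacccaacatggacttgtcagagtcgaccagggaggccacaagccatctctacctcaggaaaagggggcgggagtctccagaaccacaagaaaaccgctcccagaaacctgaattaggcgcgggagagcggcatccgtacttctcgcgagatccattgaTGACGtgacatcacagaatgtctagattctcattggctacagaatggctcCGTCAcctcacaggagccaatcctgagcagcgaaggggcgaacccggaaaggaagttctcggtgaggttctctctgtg

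In the PFC after acute cocaine, Zfp189, Maff, Gem and Adamts1 were higher, and Flrt3, Gpr22, Ankrd49 and Klf6 lower, than after acute saline. The changes were modest, from 14.3% lower (Gpr22) to 39.1% higher (Maff and Gem). At an adjusted p below 0.05, edgeR's quasi-likelihood test called 11 of 17003 genes in this comparison (0.0647%), and 7 of the 8 were among them because the genes were picked there. Gem (log2 change 0.48, SE 0.11) lay just inside that threshold and Adamts1 (0.27, SE 0.07) just outside it, and both changed sides under other settings.

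Zfp189 (chromosome 4, 49521176 to 49531517, plus strand, in GENCODE M21 on GRCm38) measured 9.68, 14.0 and 18.8 CPM as lowest, median and highest value with acute cocaine, against 8.12, 10.8 and 16.5 CPM with saline. The ranges overlapped, but 28 of 30 cocaine libraries lay above the saline median and 4 above every saline library. The log2 change was 0.32 (SE 0.07). Maff (chromosome 15, 79346621 to 79359076), a small Maf protein that pairs with other leucine zipper factors, measured 0.826, 1.35 and 2.35 CPM with cocaine and 0.453, 1.09 and 1.61 CPM with saline. In 9 of 30 cocaine libraries it exceeded every saline library, and the log2 change was 0.48 (SE 0.10). Its level, close to 1 CPM, is the lowest of the 8 genes here, so its counting error is the largest.

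Gem (chromosome 4, 11704457 to 11714752) encodes a small GTPase of the RGK group, which holds down voltage-gated calcium channels. It measured 0.956, 2.37 and 4.45 CPM with cocaine, against 0.775, 1.63 and 3.12 CPM with saline, with a log2 change of 0.48 (SE 0.11). The ranges overlapped, and 8 cocaine libraries lay above every saline library. Adamts1 (chromosome 16, 85793827 to 85803113), a secreted protease that cuts matrix proteoglycans, measured 7.82, 11.3 and 16.4 CPM with cocaine, against 6.18, 8.85 and 12.5 CPM with saline (log2 change 0.27, SE 0.07). Of 30 cocaine libraries, 24 lay above the saline median.

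Flrt3 (chromosome 2, 140650914 to 140671469, minus strand) is a membrane protein that binds latrophilins and Unc5 receptors across synapses. It measured 18.9, 24.7 and 29.4 CPM with cocaine, against 24.6, 28.2 and 34.6 CPM with saline (log2 change -0.22, SE 0.04). Of 30 cocaine libraries, 15 lay below every saline library and 1 above the saline median. Gpr22 (chromosome 12, 31706867 to 31713947, minus), an orphan G protein-coupled receptor, measured 46.7, 63.9 and 74.9 CPM with cocaine, against 49.4, 74.3 and 96.5 CPM with saline (-0.22, SE 0.05). Here too 1 of 30 cocaine libraries lay above the saline median, while the lowest values of both groups were close.

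Ankrd49, an ankyrin repeat protein (chromosome 9, 14779618 to 14784856, minus), measured 6.99, 8.54 and 10.5 CPM with cocaine, against 8.15, 9.95 and 11.4 CPM with saline (-0.20, SE 0.04). Klf6 (chromosome 13, 5861482 to 5870394, plus), a Krüppel-like zinc finger factor, measured 46.5, 58.9 and 64.1 CPM with cocaine, against 55.3, 66.0 and 78.9 CPM with saline (-0.17, SE 0.03). None of the 30 cocaine libraries (0) exceeded the saline median of Klf6, and 3 exceeded that of Ankrd49. Flrt3, Gpr22 and Ankrd49 each overlap a gene on the opposite strand (Macrod2, Cog5 and Mre11a). Whether the counting used strand is not given in the sources used here, so reads of these partners cannot be told apart from theirs. In bulk tissue, fewer cells of a type and less RNA per cell cannot be told apart either.

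**Figure D1:**
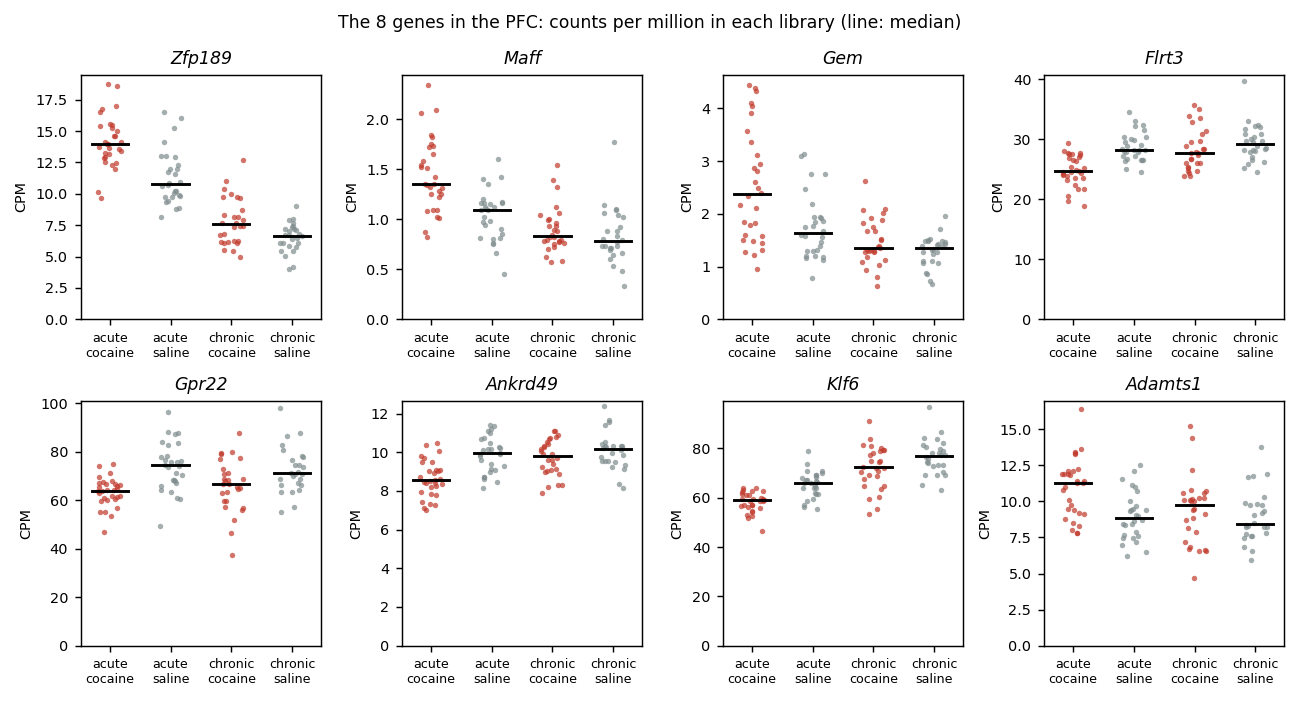
CPM of the 8 genes in each PFC library, by schedule and treatment, with the median as a line. Zfp189 had a median of 14.0 CPM with acute cocaine against 10.8 with acute saline, and lower medians of 7.58 and 6.66 CPM in the chronic cocaine and chronic saline groups.

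All 8 changes had the same sign in series 1000 and in series 1100, when each was fitted alone. For Zfp189 the log2 change was 0.29 (SE 0.09) in series 1000 and 0.38 (SE 0.05) in series 1100, and for Flrt3 it was -0.22 (SE 0.04) and -0.21 (SE 0.06). Gem (0.35 and 0.68) and Adamts1 (0.19 and 0.38) were further apart. Within series 1000 Zfp189 had medians of 15.4 CPM with cocaine and 12.6 CPM with saline, and within series 1100 of 13.6 and 10.2 CPM. The signs were also the same in females and in males for all 8, and in isolated and group-housed mice for all but Gem. The genes were chosen on all these libraries together, so a shared sign in parts of them is no support. Fitted alone, series 1000 called 3 of the 8 (0.0664% of all genes) and series 1100 called 1 (0.012%). Among markers of cell types, oligodendrocyte genes leaned upward with acute cocaine in the PFC (6 of 6 positive, median log2 change 0.18, 0 called by edgeR and 0 at an unadjusted p under 0.05) and cortical glutamatergic genes downward (1 of 7 positive, median -0.09, 0 called, 3 at that p), against a median of 0.002 over all genes, 10.6% of which were at that p. The mean log2 CPM of the oligodendrocyte list ran from 6.69 to 9.16 with cocaine and from 6.92 to 9.61 with saline, and that of the cortical list from 6.66 to 7.15 with cocaine and from 6.83 to 7.19 with saline. Their part in the values of the 8 genes was not tested.

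In the lists of families and pathways around the genes, 1 gene apart from the 8 passed in the same comparison. Of 50 neuronal activity-response genes, 1 was called, Sik1, a salt-inducible kinase that feeds back on CREB coactivators (0.44, SE 0.10, adjusted p = 0.0241). The median of the list was 0.12 and 34 of 50 were positive, against a median of 0.002 over all genes. In the Maf and CNC list (12 tested), the RGK and calcium channel list (13), the FLRT partner list (14) and the Krüppel-like list (14), the called gene was the one of the 8 genes that belongs to the list. Next to them stood Mafk (0.13, adjusted p = 0.354), the channel subunit Cacnb4 (-0.12, adjusted p = 0.406), Flrt2 (-0.14, adjusted p = 0.41) and Klf15 (0.17, adjusted p = 0.0976). By edgeR 0 of 22 genes of the ADAMTS list, 0 of 12 of the CREB list and 0 of 10 of the KRAB corepressor list passed, with 4, 2 and 2 at an unadjusted p under 0.05, where 10.6% of all genes were. At the lowest p of these lists, apart from Adamts1, stood Adamts15 (-0.15, adjusted p = 0.363), the CREB coactivator Crtc2 (0.11, adjusted p = 0.375) and the heterochromatin protein Cbx3 (-0.08, adjusted p = 0.363).

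Outside the PFC, acute cocaine called 0 of the 8 genes in AMY, Nac and VTA. In these regions edgeR called 0 of 17391 genes in AMY (0%; 538 at an unadjusted p under 0.05), 0 of 17266 in Nac (0%; 894) and 8 of 17144 in VTA (0.0467%). DESeq2 and limma voom called none of the 8 genes either (0), and DESeq2 called 2 genes in Nac. At an unadjusted p under 0.05 there were 2 of the 8 in AMY (Gem and Klf6), 1 in Nac (Gpr22) and 1 in VTA (Flrt3). The sign was that of the PFC for 7 of the 8 genes in AMY, 6 in Nac and 3 in VTA. Whether the change in the PFC differed from that in another region was not tested, since the PFC values chose the genes.

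Zfp189 measured 5.2, 8.71 and 17.6 CPM in AMY with acute cocaine, against 5.82, 8.28 and 18.9 CPM with saline (log2 change 0.14, 95% interval -0.02 to 0.30). In Nac it measured 8.04, 10.4 and 13.6 CPM, against 7.83, 10.3 and 14.3 CPM (0.09, -0.03 to 0.21). The groups overlapped almost wholly in both regions, and in VTA the medians were 7.34 CPM with cocaine and 7.43 CPM with saline (-0.01, -0.11 to 0.09). Maff had positive estimates in every region, 0.22 in AMY (-0.03 to 0.48), 0.21 in Nac (-0.03 to 0.45) and 0.14 in VTA (-0.05 to 0.33). All of these intervals held 0, and none was compared with the PFC value, which chose the gene.

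Gem in AMY measured 0.531, 0.957 and 2.18 CPM with cocaine and 0.511, 0.733 and 1.66 CPM with saline, and 24 of 28 cocaine libraries lay above the saline median. Its log2 change of 0.32 (SE 0.13, adjusted p = 1) did not pass over all genes. Gem in Nac was at 0.15 (SE 0.11), and at 0.30 (SE 0.10) without the libraries that stood apart. In VTA its estimate was negative (-0.10, -0.49 to 0.30), and its libraries scattered more widely there than in any other region, from 0.391 to 3.68 CPM with cocaine and from 0.59 to 4.92 CPM with saline. Adamts1, which was higher with cocaine in the PFC, was at 0.02 in AMY, -0.13 in Nac (-0.30 to 0.04) and 0.10 in VTA (-0.04 to 0.23). In VTA 19 of 29 cocaine libraries lay above its saline median. Series 1000 alone gave 0.24 there (SE 0.08, adjusted p = 0.0962), in a fit that called 486 genes. In series 1100 its medians in VTA were 13.4 CPM with cocaine and 14.0 CPM with saline.

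Of the 4 genes that were lower in the PFC, Gpr22 had the same sign in AMY (-0.12) and Nac (-0.22, SE 0.08, adjusted p = 0.753) and the opposite one in VTA (0.05, -0.07 to 0.16), where 17 of 29 cocaine libraries lay above the saline median. In Nac it measured 14.1, 18.5 and 32.4 CPM with cocaine and 15.2, 19.6 and 47.3 CPM with saline. Klf6 was -0.10 in AMY (SE 0.05, 5 of 28 cocaine libraries above the saline median) and -0.13 in Nac (SE 0.07), and 0.03 in VTA (SE 0.04, 15 of 29 above the saline median). In Nac, cortical glutamatergic markers were negative with cocaine for 7 of 7 genes (median log2 change -1.01, 0 called by edgeR and 0 at an unadjusted p under 0.05), and the list ran from 0.97 to 5.12 with cocaine and from 0.93 to 6.01 with saline in mean log2 CPM. Without the 10 Nac libraries that stood apart, Gpr22 was at -0.12 (SE 0.06) and Klf6 at -0.06 (SE 0.07). Flrt3 was at -0.17 in VTA (SE 0.08, adjusted p = 0.693), where 3 of 29 cocaine libraries exceeded the saline median, and at 0.04 in Nac. Its VTA medians in isolated mice were 35.3 CPM with cocaine and 34.2 CPM with saline. In group-housed mice they were 29.0 and 41.9 CPM. Ankrd49 lay within 0.05 of 0 on the log2 scale in all 3 regions.

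**Figure D2:**
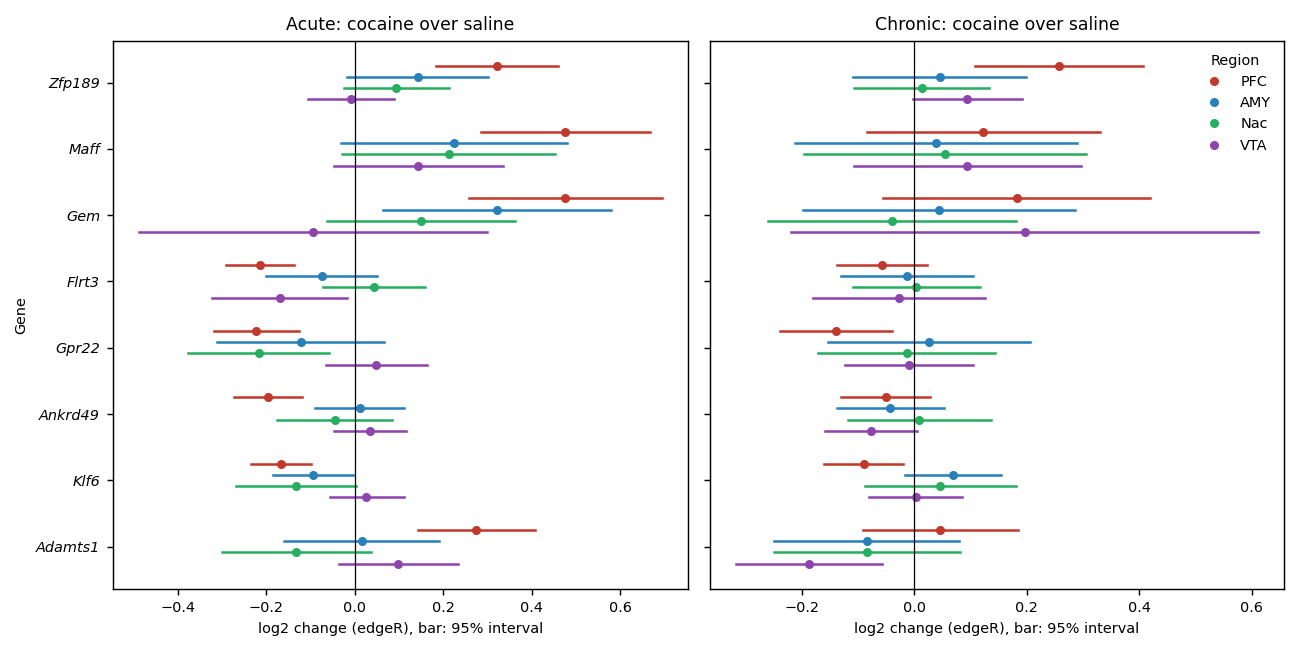
Log2 change of each gene with cocaine over saline in the 4 regions, acute on the left and chronic on the right, with 95% intervals from edgeR. In the acute panel the PFC intervals of all 8 genes lie off 0, which the choice of genes fixed, and the widest interval is that of Gem in VTA (-0.49 to 0.30).

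In the PFC the acute cocaine effect differed with housing more for Gem than for the other 7 genes, though not past edgeR's threshold over all genes. In the PFC, Gem measured 0.956, 1.8 and 4.04 CPM in isolated mice with cocaine and 1.12, 1.63 and 3.12 CPM in isolated mice with saline. In group-housed mice it measured 1.58, 2.95 and 4.45 CPM with cocaine, against 0.775, 1.66 and 2.18 CPM with saline. The groups overlapped widely in isolation, and little in group housing. The log2 change with cocaine was -0.03 (SE 0.16) in isolated and 0.98 (SE 0.15) in group-housed mice. By sex it was -0.20 in isolated females, 0.14 in isolated males, 0.72 in group-housed females and 1.24 in group-housed males.

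The difference, isolated minus group-housed, was -1.01 (95% interval -1.44 to -0.58, edgeR adjusted p = 0.188). This was the lowest p of all 17003 genes, of which 0 were called (0%; 437 at an unadjusted p under 0.05). DESeq2 gave -1.01 with an adjusted p of 0.0395 and called 2 of all genes (0.0118%). Activity-response genes leaned the same way in this contrast (8 of 50 positive, median -0.13, 0 called by edgeR, 9 at an unadjusted p under 0.05), and so did astrocyte markers (0 of 6 positive, median -0.19, 0 called, 3 at that p), whose part was not tested. The other 7 genes lay between -0.24 (Maff) and 0.15 (Ankrd49), each with an adjusted p of 1. The choice of the genes by their mean acute change in the PFC used the same libraries, although not this contrast.

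The 2 number series were not alike in this. In series 1000, isolated females had 1.27, 1.45, 1.49 and 1.84 CPM of Gem with cocaine, against 1.57, 1.67 and 2.75 CPM with saline, and isolated males 1.32, 1.51, 1.82 and 2.39 CPM, against 1.93, 2.75, 3.1 and 3.12 CPM. Group-housed females had 2.16, 2.82 and 2.95 CPM with cocaine, against 1.16, 1.3 and 1.75 CPM with saline, and group-housed males 2.87, 3.35, 3.56 and 3.91 CPM, against 0.775, 1.2, 1.21 and 1.47 CPM. Every group-housed cocaine library of series 1000 thus exceeded every group-housed saline library, and most isolated cocaine libraries lay below every isolated saline library. Fitted alone, series 1000 gave -1.76 (SE 0.23, adjusted p = 1.76e-05), in a fit that called 439 of 16556 genes (2.65%) for this change, and series 1100 gave -0.14 (SE 0.33, adjusted p = 1).

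In series 1100, isolated mice had medians of 2.1 CPM with cocaine and 1.31 CPM with saline, and group-housed mice 3.34 CPM and 1.87 CPM, so cocaine libraries had the higher median in both. The saline libraries differed between the series in opposite ways: their medians were 2.75 CPM (series 1000) and 1.31 CPM (series 1100) in isolation, and 1.21 and 1.87 CPM in group housing. Series 1000 minus series 1100, tested in 1 fit that was chosen after these values were seen, was -1.61 (95% interval -2.43 to -0.80, adjusted p = 0.0804). That test called 14 of 16920 genes in the PFC (0.0827%) and 0 of the 8. Adamts1 had the next largest difference between the series among the 8 (-0.81, adjusted p = 0.12), with -0.59 (SE 0.12, adjusted p = 0.00668) in series 1000 and 0.22 (SE 0.18) in series 1100 for its change with housing.

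**Figure D3:**
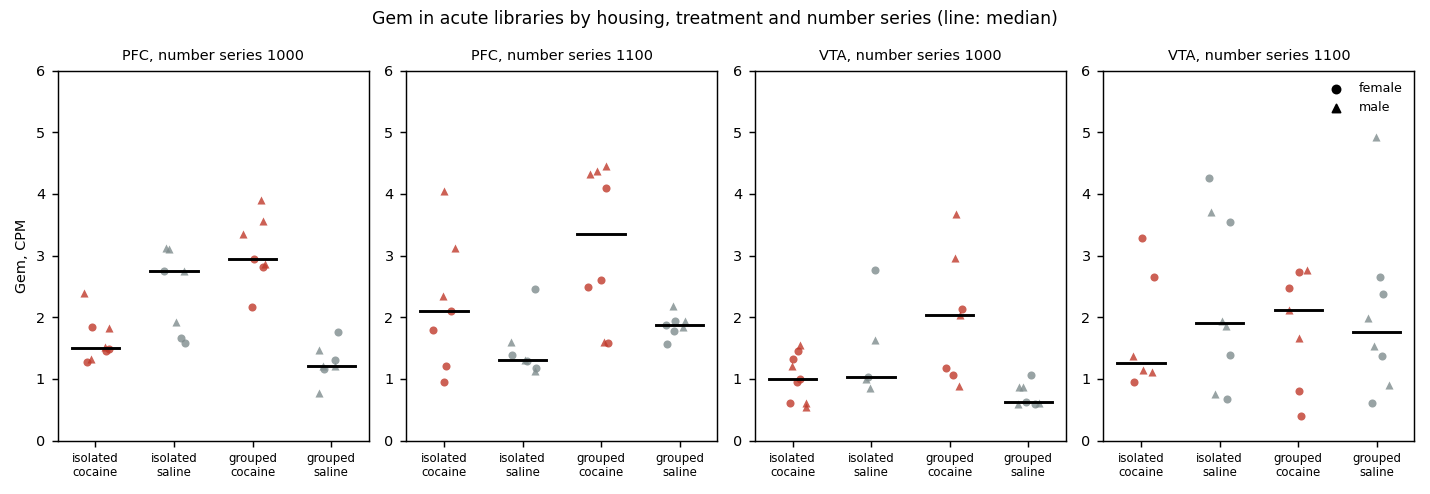
CPM of Gem in each acute library of the PFC and VTA, split by number series, with isolated mice left of group-housed mice, cocaine left of saline, circles for females, triangles for males and the median as a line. In PFC series 1000 the medians are 1.5 and 2.75 CPM in isolated cocaine and saline mice and 2.95 and 1.21 CPM in group-housed cocaine and saline mice.

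In VTA, Gem had a like difference of -1.02 (95% interval -1.80 to -0.23, adjusted p = 0.144), with -0.60 (SE 0.28) in isolated and 0.42 (SE 0.28) in group-housed mice. There too series 1000 gave the larger value, -1.82 (SE 0.45, adjusted p = 0.0108), against -0.35 (SE 0.66) in series 1100. The fit of series 1000 called 2468 of 17091 genes for this change (14.4%), so a call there does not set Gem apart. The difference between the series in VTA was -1.47 (-3.18 to 0.23, adjusted p = 0.399), in a test that called 14 of 17581 genes (0.0796%) and 0 of the 8. Most PFC and VTA libraries share title numbers, so the regions may not be independent. In VTA 220 of 17144 genes were called for the change with housing (1.28%), and 0 of the 8 were among them. Choroid plexus markers moved in the same contrast, with 7 of 7 called higher and a median of 5.11. Over all acute VTA libraries the list ran from 1.4 to 7.59 with cocaine and from 1.45 to 5.64 with saline in mean log2 CPM. Without the 7 VTA libraries that stood apart, 0 genes were called and Gem was at -1.14 (SE 0.41).

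Flrt3 in VTA went the other way from Gem (0.47, SE 0.15, adjusted p = 0.0862). Gem in Nac (0.41, -0.02 to 0.83, adjusted p = 0.957) and in AMY (0.06, -0.46 to 0.57, adjusted p = 0.957) had intervals that held 0. In Nac the series differed in sign, at -0.21 (SE 0.26) in series 1000 and 0.99 (SE 0.28) in series 1100. No gene was called for the change with housing in AMY (0%; 1719 at an unadjusted p under 0.05) or Nac (0%; 889), where DESeq2 called 3 and 2. At an unadjusted p under 0.05 there was 1 of the 8 in AMY: Zfp189, with a difference of 0.41 (SE 0.16, adjusted p = 0.462). Its log2 change with cocaine in AMY was 0.35 (SE 0.11) in isolated and -0.06 (SE 0.11) in group-housed mice. The cortical glutamatergic markers in AMY had a median of 0.59 in that contrast (6 of 7 positive, 0 called by edgeR, 1 at that p), and without the libraries that stood apart the difference of Zfp189 was 0.29 (SE 0.15).

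Sex did not change the acute cocaine effect on any of the 8 genes past the threshold. In this comparison edgeR, DESeq2 and limma voom called 0 of all genes (0%) in each region, and at an unadjusted p under 0.05 edgeR had 4.65% of genes in PFC, 2.17% in AMY, 4.4% in Nac and 6.18% in VTA. In the PFC the widest estimate was that of Gem, females minus males, at -0.43 (-0.86 to 0.003, adjusted p = 0.926). In Nac, Zfp189 (0.25, SE 0.12) and Gpr22 (0.36, SE 0.16) had an unadjusted p under 0.05, each with an adjusted p of 1.

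With chronic cocaine, Zfp189 in the PFC was the gene of the 8 that passed the test. It measured 4.99, 7.58 and 12.7 CPM with chronic cocaine, against 4.01, 6.66 and 9.04 CPM with chronic saline. The ranges overlapped, and 7 of 28 cocaine libraries lay above every saline library. The log2 change was 0.26 (95% interval 0.11 to 0.41, adjusted p = 0.026), the same direction as in the acute groups. In this comparison 7.12% of the 17003 genes were called in the PFC, and 1 of 8 genes does not stand out from that share.

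The chronic arm rests on different number series for cocaine and saline. In series 1200, Zfp189 had a median of 8.69 CPM with cocaine (4.99 to 12.7, n = 8) and 7.09 CPM with saline (5.04 to 9.04, n = 16). The cocaine libraries of series 1000 had a median of 7.4 CPM (5.43 to 10.4, n = 20) and the saline libraries of series 500 one of 6.37 CPM (4.01 to 7.89, n = 10). Within series 1200 the log2 change was 0.38 (SE 0.11) and with the series as a covariate 0.34 (SE 0.11), both with an adjusted p of 1, and limma voom gave 0.24 with an adjusted p of 0.0547. In series 1200 a lone library stands for isolated females with cocaine, so the estimate there leans on it. That estimate was as large as the one over all series, while the call was not kept in these 3 fits. In the first 2 of them 1 gene was called in the PFC. By housing, the log2 change was 0.35 (SE 0.11) in isolated and 0.16 (SE 0.11) in group-housed mice, a difference that was not tested.

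In the same comparison striatal projection neuron markers were higher in the PFC with chronic cocaine, with 6 of 7 called and a median log2 change of 0.55. The list ran from 3.75 to 7.14 with cocaine and from 3.55 to 6.14 with saline in mean log2 CPM, and 2 of 7 cortical markers were called lower. Dopamine neuron markers (3 of 5 called higher) and choroid plexus markers (2 of 6) moved too, and oligodendrocyte markers were positive for 6 of 6 genes (median 0.34, 0 called by edgeR, 2 at an unadjusted p under 0.05). Without the 8 PFC libraries that stood apart, 2 of which did so by striatal markers, Zfp189 was at 0.27 (SE 0.08, adjusted p = 0.0402). Of 50 activity-response genes 12 were called higher, where 7.12% of all genes were called in either direction. Among the 12 were the zinc finger factor Egr2 (1.01, SE 0.17, adjusted p = 0.00122), Sik1 (0.50, SE 0.10, adjusted p = 0.00261), the nuclear receptor Nr4a2 (0.63, SE 0.13, adjusted p = 0.00334) and Tiparp (0.29, SE 0.07, adjusted p = 0.00514). With the number series as a covariate 1 gene of all was called in the PFC, so at most 1 of the marker and activity-response calls was kept there. The part of these cell types in the values was not tested.

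Of the other 7 genes in the PFC, Gpr22 (-0.14, SE 0.05, adjusted p = 0.0696) and Klf6 (-0.09, SE 0.04, adjusted p = 0.0953) came nearest to the threshold. All 8 had the same sign with chronic as with acute cocaine there. Relatives of the 8 genes that were called were Nfe2l2, a partner of small Maf proteins (0.23, SE 0.06, adjusted p = 0.0197), the RGK GTPase Rem2 (0.33, SE 0.10, adjusted p = 0.0329), the calcium channel subunit Cacnb4 (-0.17, SE 0.05, adjusted p = 0.0427), Flrt2 (-0.22, SE 0.06, adjusted p = 0.0243) and Klf15 (0.18, SE 0.04, adjusted p = 0.00943). Adamts8 (-0.29, SE 0.07, adjusted p = 0.00797), Adamts6 (0.30, SE 0.10, adjusted p = 0.0483) and the CREB coactivator Crtc3 (0.13, SE 0.04, adjusted p = 0.0451) were called as well, and 0 of the KRAB corepressor list (2 at an unadjusted p under 0.05, the lower that of the heterochromatin protein Cbx1, 0.08, adjusted p = 0.147). In this comparison 7.12% of all 17003 genes were called, so these calls alone do not set the relatives apart. The calls rest on the same split of number series.

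In the other regions chronic cocaine called 0 of the 8 genes, by edgeR, DESeq2 and limma voom, against 9 of all genes in AMY (0.0518%), 26 in Nac (0.151%) and 14 in VTA (0.0817%). Only Adamts1 in VTA had an unadjusted p under 0.05. It measured 11.4, 16.9 and 24.8 CPM with chronic cocaine, against 12.7, 19.4 and 24.8 CPM with saline, and 4 of 29 cocaine libraries lay above the saline median (log2 change -0.19, SE 0.07, adjusted p = 0.524). In series 1200 its medians there were 16.7 CPM with cocaine and 20.3 CPM with saline. Zfp189 lay at 0.05 in AMY (-0.11 to 0.20), 0.01 in Nac (-0.11 to 0.13) and 0.09 in VTA (-0.003 to 0.19).

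For Zfp189 the medians of chronic and acute saline libraries lay further apart than those of cocaine and saline in the PFC, Nac and AMY. Zfp189 in saline mice had a median of 6.66 CPM in the chronic and 10.8 CPM in the acute arm of the PFC, 6.64 and 10.3 CPM in Nac, 6.26 and 8.28 CPM in AMY, and 7.01 and 7.43 CPM in VTA. In Nac the chronic saline libraries ran from 4.68 to 8.84 CPM and the acute ones from 7.83 to 14.3 CPM, so the ranges hardly met. Maff had medians of 0.786 CPM in chronic saline against 1.09 in acute saline in the PFC, and 1.19 against 1.81 CPM in VTA, while Adamts1 in VTA had 19.4 against 12.5 CPM. The acute and chronic saline libraries come from different number series throughout, so schedule and series cannot be told apart and no test was made.

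Isolation by itself passed the test for none of the 8 genes. In isolated against group-housed mice edgeR, DESeq2 and limma voom called 0 of the 8 and 0 of all genes in each region (0%), and at an unadjusted p under 0.05 edgeR had 2.39% of genes in PFC, 4.07% in AMY, 2.44% in Nac and 3.31% in VTA. The estimates ran from -0.15 (Gem, -0.31 to 0.01) to 0.03 in the PFC, from 0.01 to 0.09 in AMY, from -0.09 to 0.05 in Nac and from -0.04 to 0.15 in VTA. Klf6 in AMY (0.06, SE 0.03) and Adamts1 in the PFC (-0.10, SE 0.05) had an unadjusted p under 0.05.

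Adamts1 was lower in females than in males in the PFC. It measured 4.67, 8.54 and 16.4 CPM in 56 female libraries and 6.18, 10.2 and 15.2 CPM in 56 male libraries, with a log2 difference of -0.24 (SE 0.05, adjusted p = 0.00189). The ranges overlapped. It was the only one of the 8 called there, where 191 of all genes were called (1.12%). In the other regions 0 of the 8 were called, against 2.19% of genes in AMY, 0.272% in Nac and 0.332% in VTA, and Adamts1 was at -0.17 in AMY (SE 0.06, adjusted p = 0.114), -0.17 in Nac (SE 0.06, adjusted p = 0.321) and -0.02 in VTA (SE 0.05). Whether its sex difference differs between regions was not tested.

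Markers of vascular cells moved in the same contrast. In the PFC 2 of 7 endothelial and 2 of 6 mural cell markers were called lower in females, with medians of -0.17 and -0.24, and so were the Krüppel-like factors Klf4 (-0.33, SE 0.07, adjusted p = 0.00629), Klf2 (-0.28, SE 0.07, adjusted p = 0.024) and Klf15 (-0.12, SE 0.03, adjusted p = 0.0252). Astrocyte, oligodendrocyte and microglia markers had negative values in females against males for every gene measured (0 of 6 positive in each, 1 astrocyte gene called). The part of these cells in the value of Adamts1 was not tested. In the PFC, Zfp189 (-0.14, SE 0.05, adjusted p = 0.175) and Gem (-0.22, SE 0.08, adjusted p = 0.166) had an unadjusted p under 0.05, as had Gpr22 (0.08, adjusted p = 0.266) and Klf6 (0.05, adjusted p = 0.352).

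Between regions, compared in saline libraries on a common scale, the 8 genes fell into different orders. Against AMY all 8 differed from the PFC, as did 75.4% of all genes. Against Nac 6 of 8 did (81.8% of all genes) and against VTA 7 of 8 (85.7%), so that differences of this kind were the rule. Gpr22 had a median of 75.6 CPM in the PFC, against 40.3 in AMY, 21.8 in VTA and 19.0 in Nac, and its log2 difference, PFC over Nac, was 1.93 (SE 0.06). Klf6 had 72.5 CPM in the PFC, against 37.9 in VTA, 37.0 in AMY and 21.7 in Nac (PFC over Nac 1.69, SE 0.04). The lowest PFC library of both lay above the highest Nac library, at 51.1 CPM in the PFC against 47.3 in Nac for Gpr22 and 57.2 against 43.5 CPM for Klf6.

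Flrt3 had a median of 29.7 CPM in the PFC, against 61.9 CPM in Nac (PFC over Nac -1.06, SE 0.05), 33.2 CPM in AMY and 29.8 CPM in VTA. PFC and VTA did not differ beyond their spread for Flrt3 (0.00, -0.10 to 0.09). The highest medians of Adamts1 and Maff were those of VTA. Adamts1 had 9.01 CPM in the PFC, against 16.3 CPM in VTA (-0.75, SE 0.05), and Maff 0.95 CPM, against 1.51 CPM (-0.66, SE 0.08). Maff did not pass between PFC and Nac (0.10, -0.07 to 0.27, adjusted p = 0.261), nor did Ankrd49 (0.05, -0.03 to 0.13, adjusted p = 0.225).

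Zfp189 had medians of 9.22 CPM in the PFC, against 8.1 in Nac, 7.08 in VTA and 6.26 in AMY, with log2 differences, PFC over the other, of 0.12 (SE 0.05, adjusted p = 0.0153), 0.35 (SE 0.05) and 0.36 (SE 0.05). Its saline spread was wider in the PFC (4.14 to 17.5 CPM) than in VTA (4.81 to 9.12 CPM). Gem had 1.49 CPM in the PFC, against 1.76 in Nac, 1.06 in VTA and 0.775 in AMY, and Ankrd49 had 10.4 CPM, against 10.2, 6.93 and 8.2 CPM in the same regions.

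**Figure D4:**
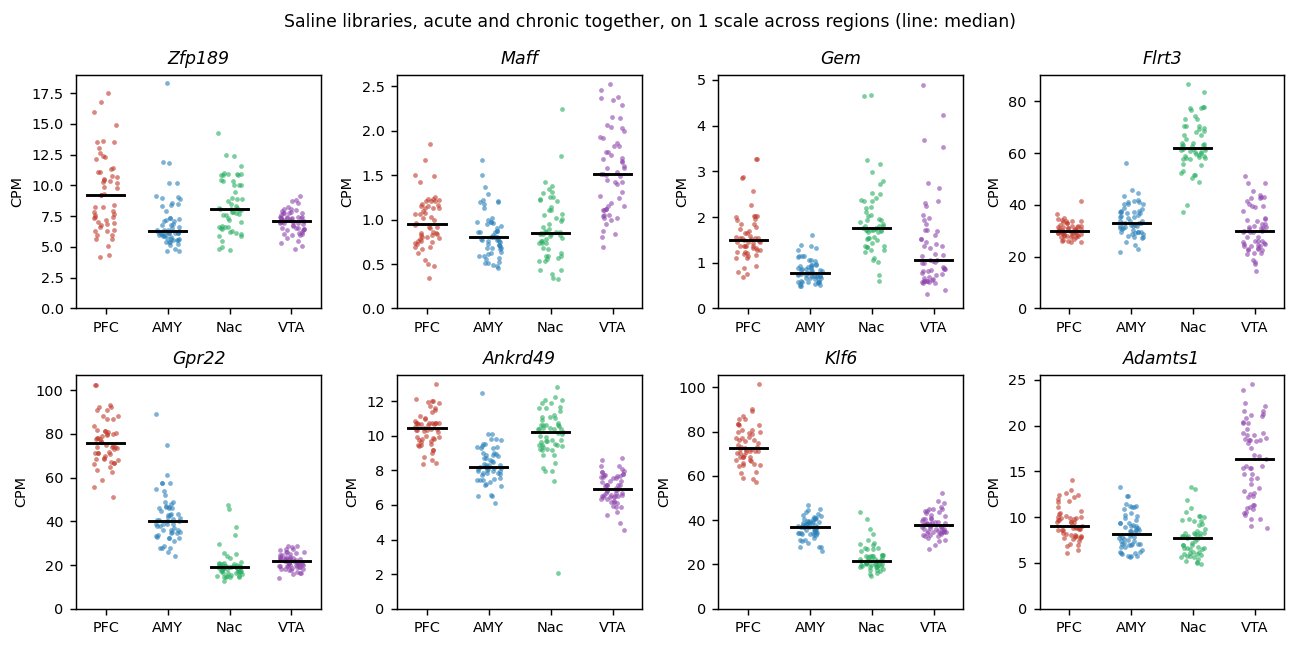
CPM of the 8 genes in saline libraries of the PFC, AMY, Nac and VTA, acute and chronic together and scaled over all libraries, with the median as a line. Gpr22 and Klf6 are highest in the PFC (75.6 and 72.5 CPM), Flrt3 in Nac (61.9 CPM) and Adamts1 in VTA (16.3 CPM).

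Correlations were taken over the libraries of a region after the mean of each of the 16 groups had been subtracted, which takes out the mean effects of treatment, housing, schedule and sex. Those means were taken over all number series together. Shifts between series within a group therefore stay in each r and permutation p, also in the r within a series. Of 28 relations of Zfp189 with another of the genes, 12 had a Benjamini-Hochberg adjusted permutation p under 0.05. The share of all genes that would pass with Zfp189 was not measured, so this count does not set the listed genes apart. In the PFC, Zfp189 correlated with Adamts1 (r = 0.30, permutation p = 0.00174, adjusted p = 0.00609, n = 112; rho = 0.29, permutation p = 0.00178) and with Gem (r = 0.26, permutation p = 0.00691, adjusted p = 0.0161; rho = 0.23, permutation p = 0.0133). Leaving out the 2 libraries farthest from the median gave r = 0.31 and 0.26. Within series 500, 1000, 1100 and 1200 r was -0.17, 0.39, 0.05 and 0.37 for Adamts1 and -0.60, 0.34, 0.27 and 0.45 for Gem, so neither held in all 4. The strongest relation was with Gpr22 in AMY (r = 0.65, rho = 0.51, n = 115, p = 1e-05 for both, the smallest that 100000 permutations can give, and 0.00028 adjusted), and r was 0.55 without 2 libraries. It rested on series 1000 and 1100 (0.75 and 0.72), and was near 0 in series 500 and 1200 (-0.04 and 0.02). In the PFC the 4 genes that were lower with acute cocaine had r from 0.43 (Gpr22 and Ankrd49) to 0.84 (Gpr22 and Klf6) among themselves. Gem and Adamts1 reached 0.52 there. Elsewhere Gpr22 and Klf6 were at 0.72 in AMY, 0.68 in Nac and -0.305 in VTA. Gem and Adamts1 were at 0.37 in AMY, 0.21 in Nac and 0.615 in VTA. Such values over all pairs of genes were not measured, so these do not set the listed genes apart.

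Title numbers linked 99 PFC libraries to Nac, 102 to AMY and 106 to VTA. Of 24 relations of a gene with itself between the PFC and another region, 5 passed after adjustment. The share that would pass over all genes was not measured here either, so this count does not set the listed genes apart. Zfp189 in the PFC followed Zfp189 in Nac (r = 0.49, permutation p = 1e-05, adjusted p = 0.00012, n = 99; rho = 0.44, permutation p = 2e-05), with r = 0.46 without the 2 farthest libraries and 0.79, 0.50, 0.33 and 0.59 within series 500, 1000, 1100 and 1200. Gem did so too (r = 0.45, rho = 0.48, each with a permutation p of 1e-05 and r with an adjusted p of 0.00012), with r = 0.48 without 2 libraries and 0.15, 0.65, 0.32 and 0.25 within the same series. The other 3 were Maff between PFC and VTA (r = 0.28, rho = 0.25, permutation p = 0.00315 and 0.0102, adjusted p of r = 0.0244), Gpr22 between PFC and AMY (r = 0.28, rho = 0.20, permutation p = 0.00406 and 0.0407, adjusted p of r = 0.0244) and Klf6 between PFC and AMY (r = 0.26, rho = 0.20, permutation p = 0.00892 and 0.0424, adjusted p of r = 0.0428). None of these 3 had an adjusted p under 0.05 by rho (0.082, 0.127 and 0.127), and Maff was at -0.36 within series 500. For Gem between PFC and VTA, r was 0.02 (permutation p = 0.817). Between series 1000 and 1100 the acute saline medians of Gem shifted alike in PFC and Nac. In group-housed mice they were 1.21 and 1.87 CPM in the PFC, and 1.8 and 3.16 CPM in Nac. In isolated mice they were 2.75 and 1.31 CPM in the PFC, and 2.16 and 1.4 CPM in Nac. The part of these shifts in the r of Gem was not tested. The labels do not say whether libraries with the same number came from the same mouse.

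**Figure D5:**
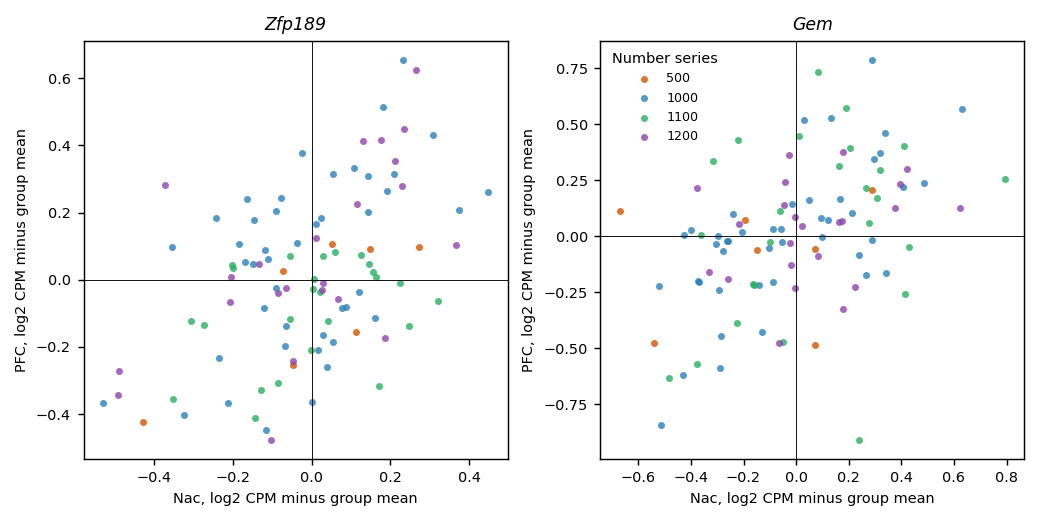
Zfp189 and Gem in the PFC (vertical) against Nac (horizontal) for 99 title numbers, as log2 CPM minus the group mean, coloured by number series. Pearson's r is 0.49 for Zfp189 and 0.45 for Gem.

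Among 13233 genes of the PFC that averaged 1 CPM or more, with a mean log2 value above 0, those most like each of the 8 in these deviations (Pearson's r over 112 libraries, a description) were as follows. For Zfp189 they were Cntnap5a (0.60), Clip4 (0.59) and Nxph1 (0.59). For Gem they were Ppp1r3c (0.67), Sbk1 (0.62) and Fam107b (0.61), and for Maff Emp1 (0.49), Ifi35 (0.48) and Ruvbl2 (0.48). For Adamts1 they were Ptbp1 (0.72), Lats2 (0.70) and Bach1 (0.69). Flrt3 was most like Ccdc127 (0.65), Lrrtm3 (0.65) and Klf6 (0.65), and Ankrd49 most like Zfp994 (0.62), Uri1 (0.61) and Cyb5b (0.61). Gpr22 and Klf6 were each other's most alike gene (0.84), followed by Sec23a (0.83) and Napb (0.83) for Gpr22 and by B3galt2 (0.77) and Prkacb (0.74) for Klf6.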

How the data were processed

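Polyadenylated RNA from 300 ng was made into stranded TruSeq mRNA libraries, pooled, and sequenced from 1 end over 50 bases, per the labels' protocols. The authors deposited whole-number counts of reads per gene. STAR, featureCounts, limma and the build GRCm38/mm10 are named in the submitters' processing notes. No version and no strand setting is given in the sources used here. Symbols were matched by identifier (42462 of 43346 genes), and genes without one hold 0.11% of counts. Coordinates come from GENCODE M21, and promoters from RefSeq GRCm38.p6.

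Each region was fitted apart across all genes in R 4.3.3 with edgeR 4.0.16 (glmQLFit, robust, 16 groups as cell means, filterByExpr, TMM), two-sided, with Benjamini-Hochberg adjustment and a threshold of 0.05. Regions were compared in 1 fit of saline libraries. The SE is the log2 change over the root of F. The fit was tested on simulated PFC data with 200 genes changed by acute cocaine, at log2 changes of 0.5 and 1 in either direction. Smaller changes and effects of housing or number series were not simulated. Alternatives were DESeq2 1.42.0, voom of limma 3.58.1, no filter, no libraries that stood apart (opposite-sex transcripts at 5% or more, robust z over 5 on 4 principal components of 3000 genes, or over 8 on a marker list), number series as a covariate or alone, library totals only, and for regions RLE factors or the title number as a replicate block. CPM is TMM-scaled, and correlations used log2(CPM + 0.5) with 100000 permutations. No 2 libraries were identical (0 pairs).

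The 8 genes, the lists around them and the tests were chosen with earlier results of these data known. The named genes are the 8, the 3 most like each, and per list up to 4 called genes of lowest p, or up to 2 where none apart from the 8 passed.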

Additional observations from a re-analysis of the deposited data

Results flagged for a closer look

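Only Gem was searched for such values, and only in the acute groups of the PFC and VTA. No other gene, no AMY or Nac library and no chronic library could therefore be flagged. Both values flagged lay in VTA, each a saline library far from the others of its group. Replicate 7 of the group-housed male acute saline mice had 4.92 CPM, against 0.59 to 1.98 CPM in the other libraries of that group (n = 8 in all). Replicate 5 of the isolated male acute saline mice had 3.70 CPM, against 0.763 to 1.94 CPM in the others (n = 7). Both are in series 1100, while their groups hold libraries of 2 number series. In series 1100 the isolated female acute saline libraries of VTA ran from 0.672 to 4.26 CPM. Of 16 groups looked at in this way 2 were flagged, where chance flags about 1 in 20 groups. That rate holds for normally spread values, which was not tested for these low counts.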

How the results depend on the processing

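No log2 change of the 8 genes that passed its test, before or under an alternative, changed sign under the settings run. Of their log2 changes under these settings, 1400 stayed on the same side of the threshold, 16 lost the call and 8 gained it. Another 40, called neither before nor under the alternative, changed sign and moved by at least their SE. Of the 8 genes in the PFC with acute cocaine, 3 were called in series 1000 alone (0.0664% of all genes) and 1 in series 1100 alone (0.012%). Gem, at an adjusted p of 0.0492, was at 0.0533 with the number series as a covariate and 0.0665 with no filter, and Adamts1, at 0.0955, was at 0.0386 by DESeq2 and 0.0435 by voom. For the change with housing, 2 of the 8 were called in the PFC in series 1000 alone (Gem and Adamts1, 2.65% of all genes) and 1 by DESeq2 (Gem, 0.0118%). In VTA 3 were called for that change in series 1000 alone (Gem, Flrt3 and Gpr22, 14.4% of all genes). With chronic cocaine in the PFC 0 were called with the series as a covariate, in series 1200 alone and by limma voom. Series 1000 or 1100 alone holds fewer samples.

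Over all genes, acute cocaine called 2 in the PFC in series 1100 alone and 2 in Nac by DESeq2. In VTA it called 486 in series 1000 alone, 13 by DESeq2, and 0 in series 1100 alone, with no filter, without the libraries that stood apart and by voom. Chronic cocaine in the PFC called 639 genes with no filter, 507 without the libraries that stood apart, and 1 each with the covariate and in series 1200 alone. In AMY it called 2 with the covariate, 1 in series 1200 alone and 19 by DESeq2. In Nac it called 13 with no filter, 6 without the libraries that stood apart, 1 with the covariate, 7 by voom, 3 in series 1200 alone, 99 by DESeq2 and 15 with library totals only. In VTA it called 5 with the covariate, 0 by voom and 1 in series 1200 alone.

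The change with housing called 439 genes in the PFC in series 1000 alone and 2 by DESeq2, 10 and 3 in AMY, and 4 and 2 in Nac, where 1 was called without the libraries that stood apart. In VTA it called 2468 in series 1000 alone, 336 by DESeq2, 85 with no filter, 6 by voom, and 0 in series 1100 alone and without the libraries that stood apart. The change with sex called 1 in VTA in series 1000 alone. Females against males in the PFC called 74 with no filter and 332 without the libraries that stood apart. The cause of these moves was not tested. Of the 28 relations of Zfp189, 19 were positive over all series and 12 in series 500 alone. Leaving out each of the 5 isolated male acute cocaine libraries of AMY, the smallest group, changed no count. With the title number as a replicate block, the region comparisons called the same numbers of the 8 genes (8, 6 and 7), and Zfp189 was at 0.38 for PFC over AMY. With RLE factors Maff lost its call for PFC over AMY (0.17, edgeR adjusted p = 0.0528). Maff near 1 CPM, and Gem in VTA with SEs up to 0.40 on the log2 scale for the change with housing, limit what small changes could be seen.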
